A study of Homo sapiens with 118 samples.

Results

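The transporters that carry bile acids and bilirubin into and out of the hepatocyte were followed in HepaRG cells exposed to histone deacetylase inhibitors. The 10 genes were taken by name, namely SLC10A1, SLCO1B1 and SLCO1B3 (uptake from blood), ABCB11, ABCB4 and ABCC2 (export into bile), and ABCC3, ABCC4, SLC51A and SLC51B (export back to blood). All 10 were present in the count table, where they had 17 of the 22068 rows that held a value in every library. A row is the count of 1 detector probe, and ABCB11 had 4 probes, ABCC3 had 3, ABCC2 and ABCC4 had 2 each, and the other genes had 1. Where a gene had several, its probe with the highest mean level is described first.

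HepaRG is an established human liver cell line, used here in its differentiated state. The 118 libraries came from cells exposed for 72 hours, with the chemical renewed each day, to 1 of 8 inhibitors in 0.5% DMSO, each at 5 concentrations that rise from C1 to C5. By the dose labels, which the treatment protocol gives in µM, C1 and C5 were 0.041722 and 0.86 for apicidin, 0.177222 and 3.9 for mocetinostat, 1.143333 and 44 for tacedinaline, 0.001468 and 0.084 for panobinostat, 4.94 and 94.5 for scriptaid, 0.404778 and 23.5 for vorinostat, 0.018811 and 1.5237 for trichostatin A, and 100.478 and 3038 for valproic acid. For valproic acid the labels and the treatment protocol differ in scale, so the unit of its concentrations could not be settled. Panobinostat, scriptaid, trichostatin A and vorinostat are hydroxamates, mocetinostat and tacedinaline are benzamides, apicidin is a cyclic tetrapeptide and valproic acid is a short-chain fatty acid. There were 3 libraries in 38 of the 40 groups, 1 from each of 3 batches of HepaRG cells, and 2 libraries in panobinostat C3 and trichostatin A C4, which lacked batch 3. Solvent-control libraries were not analysed here, so C1 of the same chemical was the reference, and every group compared had received an inhibitor. The labels also give a plate for each library, and scriptaid, tacedinaline and vorinostat were on plate E while the other 5 chemicals were on plate H, so in comparisons between chemicals plate and chemical cannot be told apart. The model is a single cell line, and the 3 replicates are cell batches, so p-values measure the spread between those batches.

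Bile acids enter the hepatocyte from portal blood through the sodium-dependent carrier SLC10A1 (NTCP) and the organic anion carriers SLCO1B1 (OATP1B1) and SLCO1B3 (OATP1B3), which also take up bilirubin and many drugs. At the canalicular membrane ABCB11 (BSEP) exports bile salts, ABCB4 (MDR3) moves phosphatidylcholine into bile, and ABCC2 (MRP2) exports conjugated bilirubin and other conjugates. ABCC3 (MRP3), ABCC4 (MRP4) and the heteromer of SLC51A and SLC51B (OSTα and OSTβ) return bile acids or conjugates to blood, a route that is known to gain weight in cholestasis. The bile acid sensor NR1H4 (FXR) is known to act on several of these genes.

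Promoter sequences are shown for 4 members because 3 of them (SLCO1B1, SLC10A1 and ABCC2) fell in several chemicals and the other, ABCC4, was called lower in none. They are RefSeq sequences of build GRCh38.p14, each from 250 bases before to 50 bases after the annotated start, written 5′ to 3′ along the gene's strand. Of the 10 members, 8 were found in the promoter table. ABCC3 and ABCB4 were not, so no CG count is given for ABCC3, which fell in the same chemicals as ABCC2. ABCC4 lay at chr13:95301402-95301701 on the minus strand, ABCC2 at chr10:99782390-99782689 on the plus strand, SLC10A1 at chr14:69797192-69797491 on the minus strand and SLCO1B1 at chr12:21130944-21131243 on the plus strand. Capitals mark CG dinucleotides in the first 3 sequences and, in SLCO1B1, which has no CG, the matches to GTTAAT on either strand, letters found in sites of the liver factor HNF1.
ABCC4: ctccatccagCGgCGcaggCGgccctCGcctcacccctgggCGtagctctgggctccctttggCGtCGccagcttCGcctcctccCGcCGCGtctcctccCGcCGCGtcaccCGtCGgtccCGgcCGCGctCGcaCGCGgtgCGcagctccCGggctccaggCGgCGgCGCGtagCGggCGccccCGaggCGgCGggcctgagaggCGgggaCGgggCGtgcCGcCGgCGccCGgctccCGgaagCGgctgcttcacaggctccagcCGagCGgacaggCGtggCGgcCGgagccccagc
ABCC2: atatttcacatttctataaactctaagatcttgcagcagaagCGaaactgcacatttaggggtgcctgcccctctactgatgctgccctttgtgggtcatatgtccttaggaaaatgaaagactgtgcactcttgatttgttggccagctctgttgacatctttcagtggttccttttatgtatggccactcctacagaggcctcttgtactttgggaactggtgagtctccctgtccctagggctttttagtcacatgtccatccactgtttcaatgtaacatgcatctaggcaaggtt
SLC10A1: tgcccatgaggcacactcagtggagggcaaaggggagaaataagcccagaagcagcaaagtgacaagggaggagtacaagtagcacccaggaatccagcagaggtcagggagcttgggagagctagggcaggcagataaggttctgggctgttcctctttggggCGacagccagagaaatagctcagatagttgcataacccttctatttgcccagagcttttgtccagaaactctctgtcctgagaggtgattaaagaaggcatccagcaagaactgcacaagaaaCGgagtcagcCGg
SLCO1B1: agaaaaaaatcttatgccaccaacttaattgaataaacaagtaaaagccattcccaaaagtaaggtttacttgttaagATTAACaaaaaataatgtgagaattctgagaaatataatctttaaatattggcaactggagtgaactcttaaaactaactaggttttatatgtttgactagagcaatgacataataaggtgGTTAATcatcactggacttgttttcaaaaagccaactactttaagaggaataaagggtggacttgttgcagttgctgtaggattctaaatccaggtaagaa

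The ABCC4 promoter window held 47 CG dinucleotides, a count that 2.41% of the 35116 promoters in the table reach. ABCC2 held 1, SLC10A1 and ABCB11 held 3 each, and SLCO1B1 and SLCO1B3 held none, against a median of 14 over all promoters. SLC51B held 5 and SLC51A held 10. The ABCC4 window was 79.7% G or C, SLCO1B1 was 31.3% and ABCC2 was 45.0%, against a median of 58.7%. GTTAAT had 2 matches in SLCO1B1 and 1 in SLCO1B3, and in 6.88% of all promoters. AGGTCA, the core letters of many nuclear receptor sites, had 1 match each in SLC10A1, SLCO1B3 and SLC51B, and in 13.8% of all promoters. TATAAA occurred in ABCC2 and SLCO1B1, and in 11.5% of all promoters, and GGGCGG occurred in none of the 8 members and in 45.0% of all promoters. Both strands were searched, and these matches describe letters in the window only.

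Levels are given as CPM, the probe's share of the scaled library size per 1000000 counts. Libraries held 1061359 to 5250260 counts, and the means at C5 were below those at C1 in every chemical. At C5 the mean was 1485592 to 2325353 counts in the chemicals on plate E and 3462585 to 4078055 in those on plate H. Since a probe's count depends on how well it binds and ligates, levels of different genes are not compared. Libraries that stood apart for the members were picked out after their values were known, and 2 of them were also left out in a fit. In trichostatin A C1, batch 3 had 32.2 CPM of SLCO1B1 against 114 and 111 in the other batches, 110 against 234 and 248 of ABCC2, and 66.8 against 195 and 200 of ABCC3. Its summed level of 12 hepatocyte markers was 18008 CPM against 71868 and 75146. In scriptaid C4, batch 3 had 147 CPM of SLCO1B1 against 7.78 and 8.40, and 29.9 CPM of ABCB11 against 9.94 and 4.20. Its hepatocyte marker sum was 15039 CPM, against 20290 and 18291 in the other batches. For scriptaid at C3 to C5, member calls that changed without its library are given both ways. For trichostatin A the C5 changes of SLCO1B1, ABCC2 and ABCC3 are. Other libraries also differed from their group. In mocetinostat C2, batches 1, 2 and 3 had 49.7, 81.4 and 172 CPM of ABCC4 and 346, 299 and 121 of ABCC3. For ABCC4, batch 2 of panobinostat C2 had 63.1 CPM against 133 and 130, and batch 3 of valproic acid C4 had 69.6 against 151 and 187. None of these was left out on its own.

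Each chemical was fitted separately with edgeR's quasi-likelihood test, and a call required a Benjamini-Hochberg adjusted p under 0.05 over all features together with a change of 1.5-fold or more. Of 136 combinations of a member probe and a chemical, 102 had counts high enough to be tested. At C5, 59 were called lower and 3 higher than C1. No member was called in trichostatin A, so the lower calls came from the other 7 chemicals, 9 of 13 tested probes in apicidin, 12 of 14 in mocetinostat, 11 of 13 in tacedinaline, 5 of 14 in panobinostat, 10 of 14 in scriptaid, 7 of 10 in vorinostat and 5 of 11 in valproic acid. Over all features tested, the share called lower was 15% in apicidin, 15.7% in mocetinostat, 20.1% in tacedinaline, 9.46% in panobinostat, 17% in scriptaid, 24.9% in vorinostat, 6.22% in valproic acid and 0.0154% in trichostatin A. The share called higher was 13.8%, 14.8%, 18.7%, 6.77%, 12.8%, 22.7%, 4.84% and 0% in the same order. The median log2 change of the tested member probes was -2.22 in apicidin, -4.99 in mocetinostat, -4.87 in tacedinaline, -0.90 in panobinostat, -3.90 in scriptaid, -3.07 in vorinostat and -1.35 in valproic acid. The medians over all features tested in these chemicals lay between -0.00 and 0.08. These member medians include fitted values of probes at the floor, whose size depends on the prior count, and they cover only the probes that passed the filter on low counts.

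**Figure D1:**
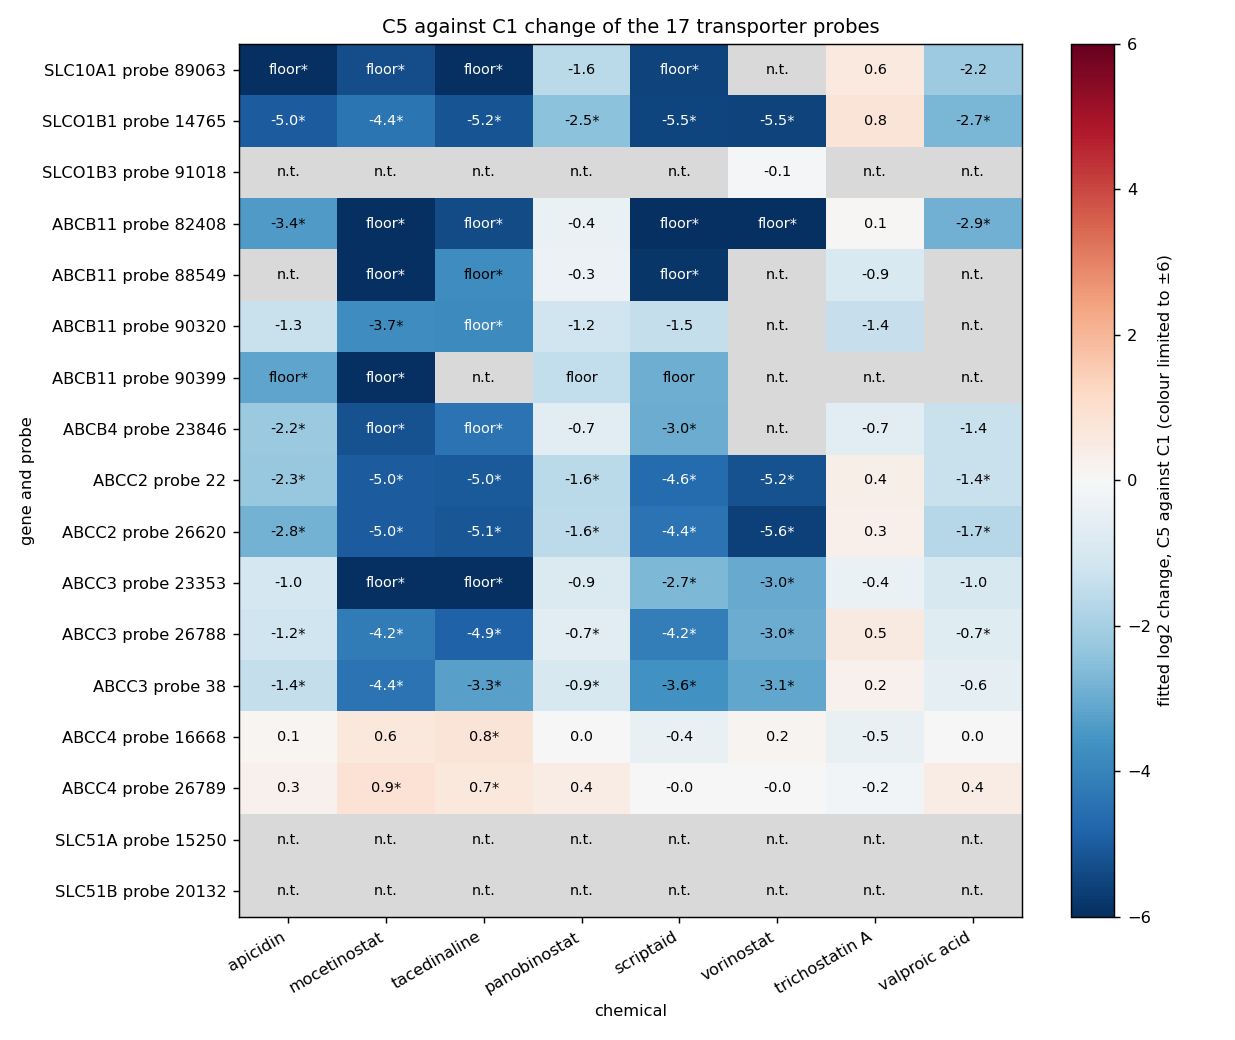
Fitted log2 change of C5 against C1 for the 17 member probes (rows) in the 8 chemicals (columns), with blue for lower and red for higher. An asterisk marks a call, "floor" marks a C5 group with at most 3 counts in all, and "n.t." marks a probe with too few counts to be tested. The ABCC2, SLCO1B1 and leading ABCC3 probes are blue with an asterisk in 7 chemicals, and the trichostatin A column holds no asterisk.

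Among the uptake carriers, SLCO1B1 fell in all 7 chemicals other than trichostatin A. In tacedinaline its libraries read 99.3, 108 and 91.7 CPM at C1 and 2.47, 3.76 and 1.22 at C5. In vorinostat they read 135, 221 and 158 at C1 and 3.27, 0.94 and 6.48 at C5, and in apicidin 137, 121 and 103 at C1 and 1.57, 4.15 and 5.47 at C5. The C1 and C5 libraries did not overlap in any of these 3 chemicals, and no C5 library was above 6.48 CPM. The log2 change was -5.19 ± 0.37 in tacedinaline (SE, n = 3 against 3), -5.53 ± 0.39 in vorinostat, -4.98 ± 0.34 in apicidin, -5.51 ± 0.93 in scriptaid and -4.36 ± 0.68 in mocetinostat. Panobinostat, with 106, 85.0 and 76.1 CPM at C1 and 19.9, 17.2 and 11.5 at C5, and valproic acid, with 85.1, 88.5 and 107 at C1 and 20.2, 14.2 and 6.77 at C5, also had no overlap. Their log2 changes were -2.47 ± 0.27 and -2.73 ± 0.32. The largest adjusted p among the 7 chemicals was 0.000212, in scriptaid.

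SLCO1B1 was already called lower at C3 in apicidin, mocetinostat, tacedinaline and vorinostat. Its libraries in mocetinostat went from 60.6, 87.4 and 50.3 CPM at C1 to 3.21, 9.37 and 3.53 at C3. Valproic acid was first called at C4, and panobinostat and scriptaid at C5. The 2 libraries of panobinostat C3, at 146 and 112 CPM, both lay above the 3 at C1. In scriptaid C4 the call turned on batch 3, since the log2 change was -1.64 (adjusted p = 0.226) with it and -4.39 ± 0.40 (adjusted p = 1.29e-07) without it. Without that library SLCO1B1 was also called at C3 of scriptaid, where the log2 change was -2.01 ± 0.29 (adjusted p = 6.29e-05, against 0.279 with it).

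SLC10A1, the main sodium-dependent bile salt carrier, was near the limit of detection. Its C1 libraries lay between 0 and 9.96 CPM, with a median of 6.31 over 24 libraries. In apicidin it had 75 counts at C1 and 0 at C5, which is at least 23.6-fold lower when C5 is set at the floor of 3 counts over the group. In tacedinaline it had 52 counts at C1 and 0 at C5, at least 14.8-fold lower by the same floor. In mocetinostat 108 counts stood against 2, a ratio of 50.2 (95% exact interval 13.6 to 420), and in scriptaid 85 against 1, a ratio of 62.8 (11.0 to 2508). These 4 falls were called, with adjusted p between 0.000166 and 0.00215. Valproic acid, with 6.41, 4.58 and 9.47 CPM at C1 and 2.95, 0.24 and 1.13 at C5, was called lower at C4 (log2 change -2.57 ± 0.76) and not at C5 (log2 change -2.19 ± 0.73, adjusted p = 0.0540). Panobinostat gave a log2 change of -1.60 ± 0.97 and was not called. In vorinostat the probe was not tested, with 51 counts at C1 and 2 at C5 (ratio 14.3, interval 3.77 to 122). Such intervals cover counting error only.

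SLCO1B3, which shares substrates with SLCO1B1, was barely detected. It had 434 counts over all libraries and a count above 0 in 80 of them. Vorinostat was the single chemical in which it was tested, with 2.23, 0.25 and 6.21 CPM at C1 and 3.27, 0 and 4.72 at C5. The groups overlapped and the log2 change was -0.08 ± 1.08. A change was not detectable at this depth. In tacedinaline, untested, 20 counts at C1 stood against 1 at C5 (ratio 17.1, interval 2.73 to 708), and the C1 libraries read 7.58, 2.37 and 0.73 CPM.

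**Figure D2:**
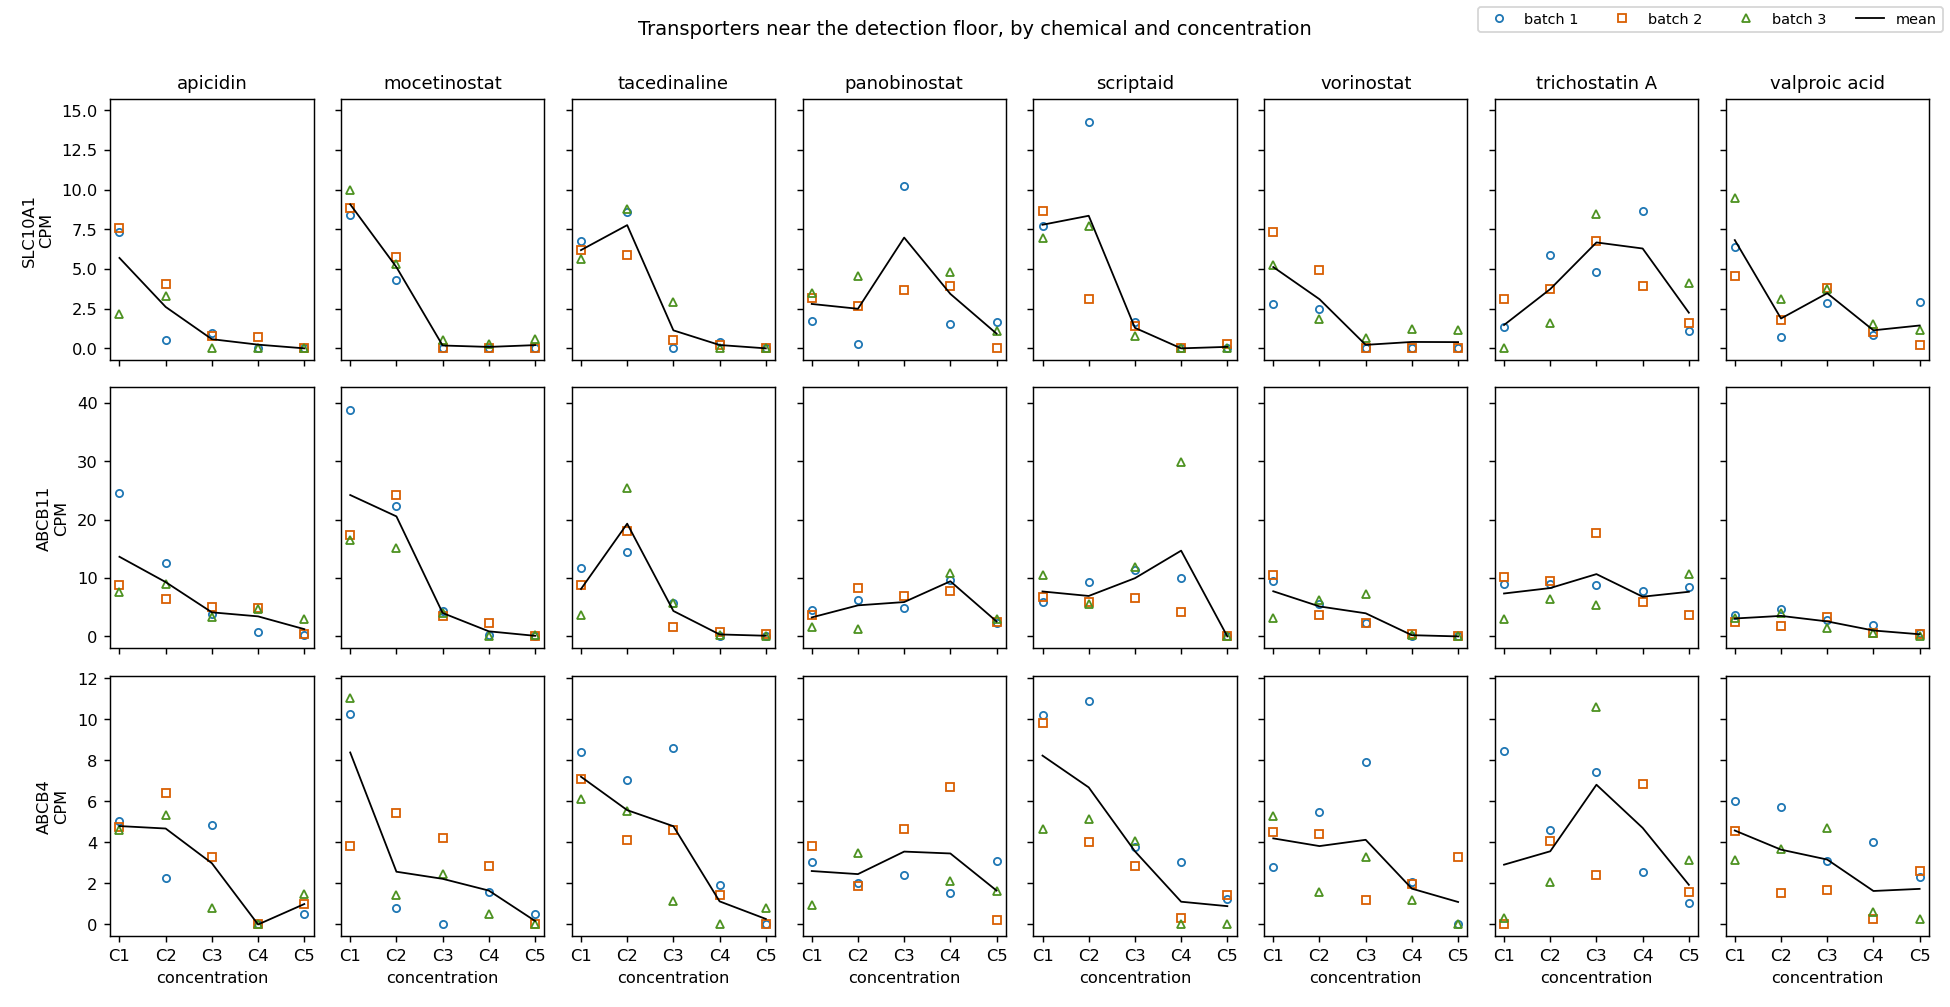
Level in CPM of SLC10A1, ABCB11 and ABCB4 (leading probe of each) at C1 to C5 in each chemical, on linear axes, with 1 symbol per library by HepaRG batch and a line through the means. SLC10A1 has 0 counts at C5 in all libraries of apicidin and tacedinaline, and in trichostatin A the C1 and C5 libraries of each gene overlap.

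Among the canalicular exporters, ABCC2 gave the most precise changes. In mocetinostat its libraries read 236, 230 and 215 CPM at C1 and 9.53, 6.92 and 3.33 at C5. In vorinostat they read 252, 254 and 164 at C1 and 5.71, 8.47 and 1.77 at C5, and in scriptaid 230, 220 and 250 at C1 and 13.4, 10.2 and 2.86 at C5. No C5 library of these 3 chemicals was above 13.4 CPM, and no C1 library was below 164. The fitted fall in mocetinostat was 32.0-fold. The log2 change was -5.22 ± 0.33 in vorinostat, -4.62 ± 0.43 in scriptaid and -5.05 ± 0.28 in tacedinaline. In apicidin ABCC2 fell from 273, 226 and 239 CPM to 45.5, 53.3 and 53.7 (log2 change -2.26 ± 0.20). Panobinostat went from 271, 235 and 252 CPM to 103, 76.4 and 71.5, and valproic acid from 242, 230 and 210 to 102, 70.2 and 92.8. Their log2 changes were -1.61 ± 0.17 and -1.35 ± 0.19, and the largest adjusted p of the 7 was 2.59e-05. The second ABCC2 probe was called lower in the same 7 chemicals, with log2 changes between -5.59 in vorinostat and -1.58 in panobinostat.

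The leading ABCC2 probe was first called at the same concentration as SLCO1B1 in each of the 7 chemicals. In scriptaid this held only with the C4 library of batch 3, since without it SLCO1B1 was first called at C3 and this probe at C5. In apicidin the level at C3 was 59.4, 83.1 and 72.3 CPM and at C5 45.5, 53.3 and 53.7, after 275, 214 and 210 CPM at C2, so most of its fall lay between C2 and C3. In tacedinaline it went from 44.2, 59.6 and 47.5 CPM at C3 to 13.2, 5.99 and 9.59 at C4 and 8.41, 4.45 and 5.29 at C5. In scriptaid it read 210, 113 and 286 CPM at C4 before the drop at C5, and the C4 change of this probe was not called with batch 3 (log2 change -0.15) or without it (-0.54).

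ABCB11, the bile salt export pump, fell in 6 chemicals. In mocetinostat its leading probe read 38.7, 17.4 and 16.4 CPM at C1 and 0, 0 and 0.30 at C5, a ratio of 265 (interval 47.2 to 10501) from 285 counts against 1. In tacedinaline 59 counts stood against 1 (ratio 50.4, interval 8.70 to 2024). No count was left at C5 in scriptaid or vorinostat, at least 20.4-fold and 12.9-fold lower. Apicidin went from 24.5, 8.77 and 7.62 CPM to 0.26, 0.49 and 2.98 (log2 change -3.41 ± 0.74). Valproic acid went from 3.60, 2.44 and 3.16 CPM to 0.63, 0.47 and 0 (-2.88 ± 0.89, adjusted p = 0.0371). That call was lost on leaving out any 1 batch, with adjusted p between 0.137 and 0.212. In panobinostat the libraries overlapped, with 4.55, 3.63 and 1.57 CPM at C1 and 2.24, 2.42 and 3.01 at C5 (-0.38 ± 0.61).

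The other 3 ABCB11 probes were weaker and were tested in fewer chemicals. ABCB11_88549 was called lower in 3 of 5 chemicals tested, ABCB11_90320 in 2 of 6 and ABCB11_90399 in 2 of 4, and none was called higher. Scriptaid showed where they parted, since the leading probe had no count at C5 and ABCB11_90320 gave a log2 change of -1.45 ± 0.94 (adjusted p = 0.262) from 26 counts against 7.

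ABCB4, the phospholipid floppase, fell in 4 chemicals. In mocetinostat it read 10.3, 3.85 and 11.0 CPM at C1 and 0.52, 0 and 0 at C5 (97 counts against 2, ratio 45.1, interval 12.1 to 378). In tacedinaline it read 8.42, 7.10 and 6.10 at C1 and 0, 0 and 0.81 at C5 (59 counts against 2, ratio 25.2, interval 6.67 to 213). Scriptaid, at -3.00 ± 0.91, and apicidin, at -2.22 ± 0.79, were the other 2. The groups did not overlap in these 4 chemicals. The apicidin call was lost with the replicate block (adjusted p = 0.0568) and on leaving out any 1 batch, and the scriptaid call was lost without batch 1 or without batch 2, and the mocetinostat call without batch 2 or without batch 3. Vorinostat, with 2.79, 4.53 and 5.28 CPM at C1 and 0, 3.29 and 0 at C5, had too few counts to be tested.

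The basolateral exporters went different ways. ABCC3 fell in the 7 chemicals, and ABCC4 was called lower in none. In tacedinaline ABCC3 read 192, 210 and 153 CPM at C1 and 0.99, 2.40 and 14.2 at C5, so all 3 batches were lower and the highest was batch 3. In mocetinostat it read 208, 210 and 216 at C1 and 9.79, 12.3 and 10.9 at C5. In vorinostat it read 225, 238 and 168 at C1 and 34.3, 26.4 and 15.9 at C5. The log2 change was -4.87 ± 0.34 in tacedinaline, -4.18 ± 0.38 in mocetinostat, -4.17 ± 0.43 in scriptaid, -2.96 ± 0.25 in vorinostat and -1.22 ± 0.23 in apicidin. The falls in panobinostat (185, 166 and 226 CPM to 140, 111 and 110, log2 change -0.69 ± 0.18) and valproic acid (174, 218 and 176 CPM to 127, 106 and 106, -0.73 ± 0.17) were called as well. The panobinostat call was lost without batch 1 or without batch 3, the valproic acid call without batch 1 or without batch 2, and both in 1 fit of all libraries (adjusted p = 0.137 and 0.132). A second ABCC3 probe was called lower in 6 chemicals and the third in 4, none in the opposite direction.

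ABCC4 rose in mocetinostat and tacedinaline, the 2 benzamides. In tacedinaline its libraries read 136, 116 and 112 CPM at C1, 192, 229 and 176 at C3, 245, 196 and 204 at C4 and 191, 181 and 168 at C5. In mocetinostat they read 132, 132 and 120 at C1, 195, 285 and 267 at C3, 224, 307 and 251 at C4 and 219, 241 and 198 at C5. From C3 upwards no library of either chemical overlapped its C1 libraries, and the highest mean was at C4. At C2 of mocetinostat, batches 1 and 2 lay below all C1 libraries at 49.7 and 81.4 CPM. Batch 3 lay above them at 172 CPM, and the C2 change was not called. At C4 the log2 change was 0.89 ± 0.15 in tacedinaline (adjusted p = 1.01e-05) and 1.09 ± 0.31 in mocetinostat (adjusted p = 0.0179). At C5 it was 0.65 ± 0.16 (adjusted p = 0.000656) and 0.86 ± 0.31 (adjusted p = 0.0444). At C3 the change was called in both, and in mocetinostat its adjusted p was 0.0499 and the call was lost with the replicate block (adjusted p = 0.0544). Over 10 alternatives each, the C3 call was kept in 9 for tacedinaline and 4 for mocetinostat, and the C4 call in 10 and 9. The C5 call was kept in 9 and 4, and the adjusted p of mocetinostat at C5 ran from 0.00586 to 0.280. The second ABCC4 probe, whose C1 and C5 libraries overlapped in every chemical, was called higher in tacedinaline at C4 and C5 and in vorinostat at C4, and not in mocetinostat, where its log2 change at C5 was 0.62 ± 0.50. Its calls were kept in 7 of 10 alternatives at C4 and 4 of 10 at C5 in tacedinaline and in 6 of 10 in vorinostat. The tacedinaline call at C5 (adjusted p = 0.0485) was lost with DESeq2 (0.0745), RLE size factors (0.0525), no filter on low counts (0.0828) and 1 fit of all libraries (0.157), and without batch 1 (0.426) or batch 2 (0.282). At C4 it was lost in 1 fit of all libraries (0.103) and without batch 1 (0.0906) or batch 2 (0.460), and in vorinostat with DESeq2 (0.0545) and on leaving out any 1 batch (0.0899 to 0.126).

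In the other 6 chemicals the leading ABCC4 probe was not called at C5. Its log2 change and the range of 2 standard errors on each side were 0.25 (-0.10 to 0.60) in apicidin, 0.45 (0.01 to 0.88) in panobinostat and 0.43 (-0.03 to 0.89) in valproic acid. In these 3 chemicals each C5 library lay above all C1 libraries, as 180, 181 and 144 against 128, 123 and 115 CPM in panobinostat. The values were -0.03 (-0.58 to 0.52) in scriptaid, -0.02 (-0.36 to 0.33) in vorinostat and -0.16 (-0.59 to 0.27) in trichostatin A, and their signs turned under other scalings or without a batch. The difference between the 8 chemicals in the ABCC4 change was not called (adjusted p = 0.0936), so a rise particular to the benzamides was not shown.

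**Figure D3:**
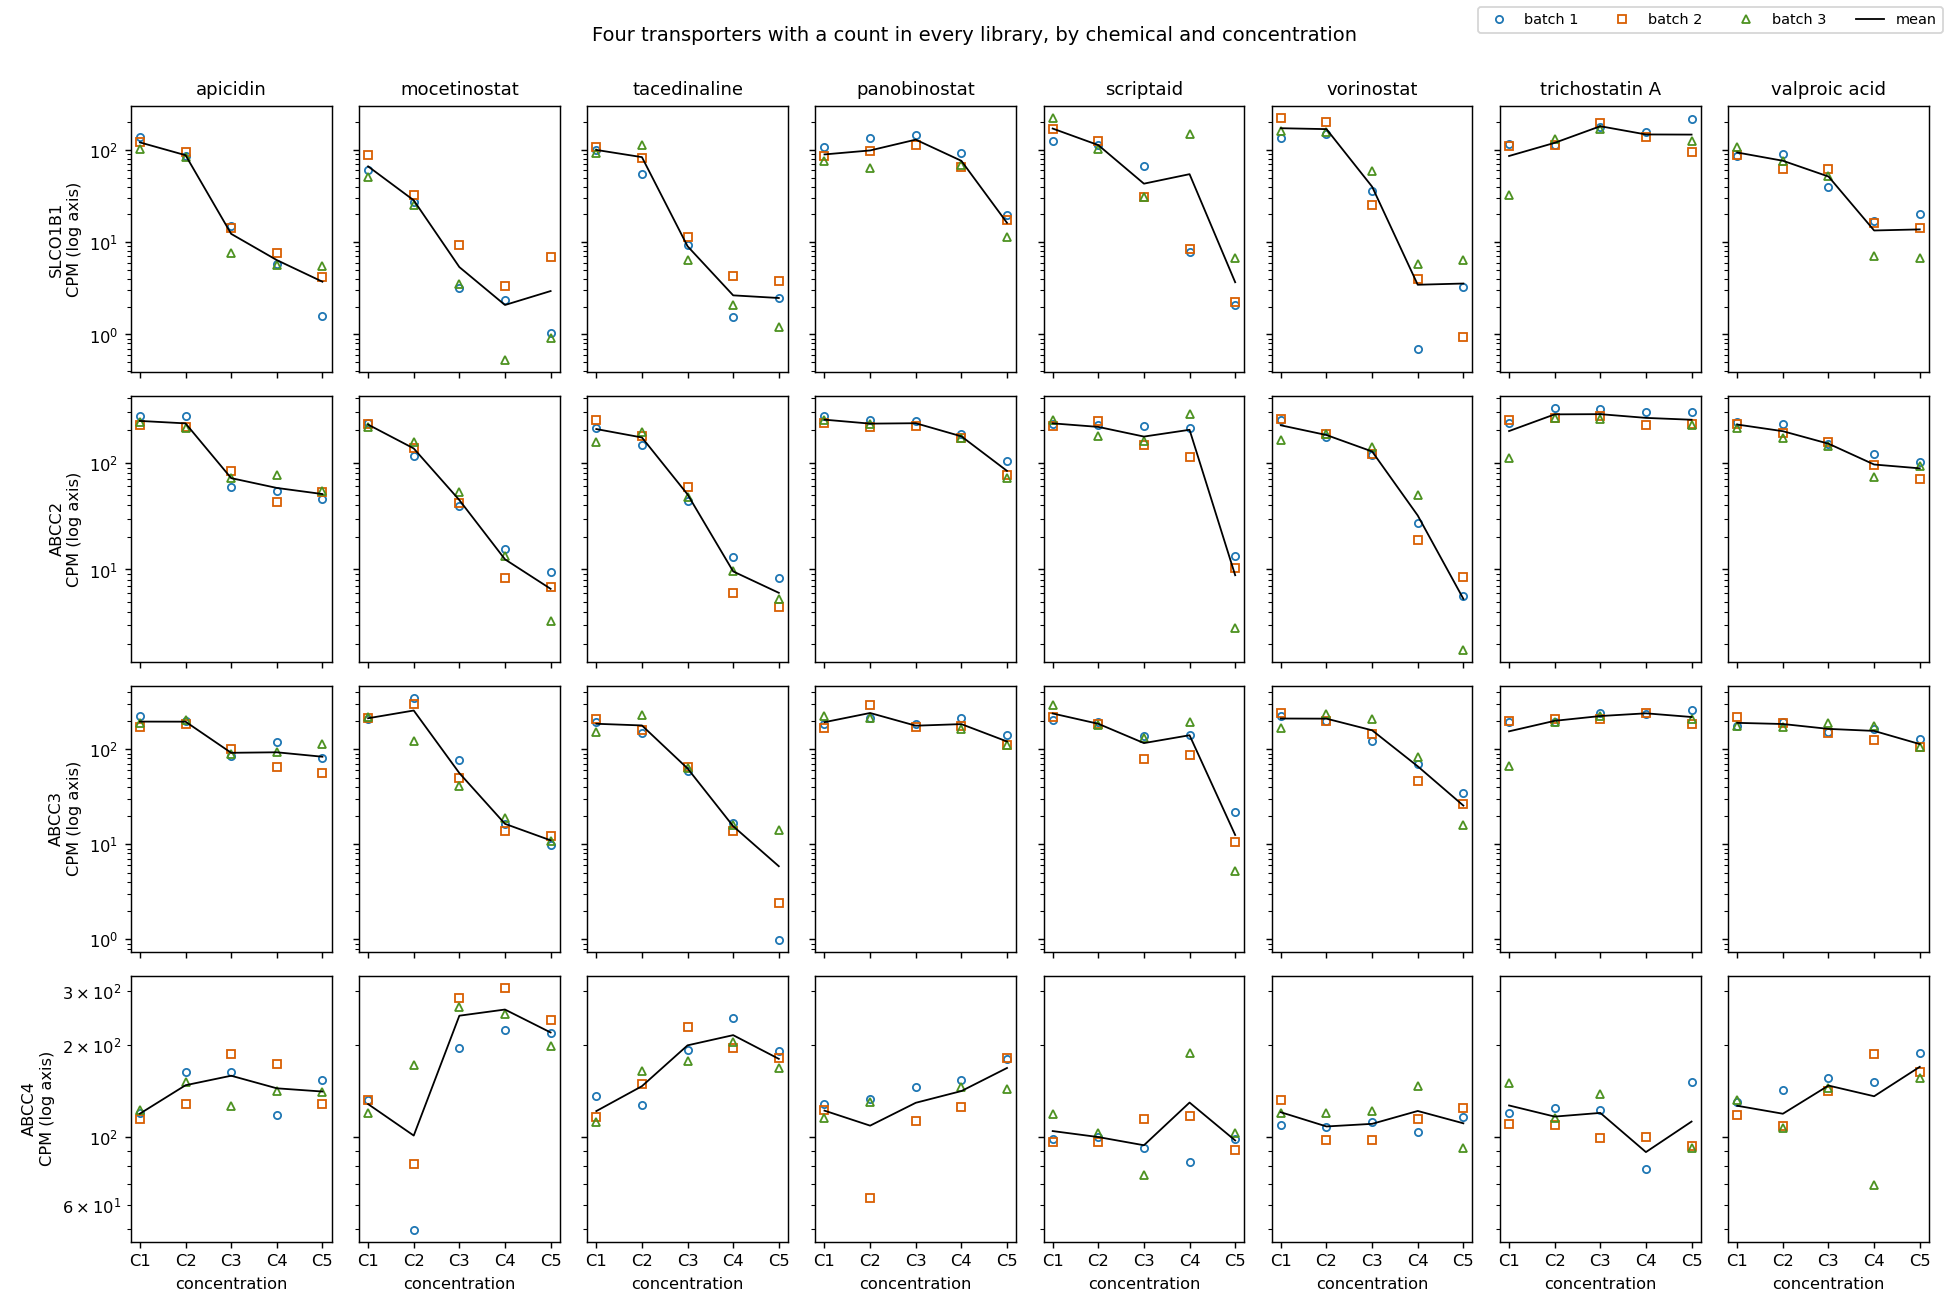
Level in CPM, on a log axis, of SLCO1B1, ABCC2, ABCC3 and ABCC4 (leading probe of each) at C1 to C5 in each chemical, with 1 symbol per library by HepaRG batch and a line through the means. SLCO1B1, ABCC2 and ABCC3 are lower at C5 than at C1 in all chemicals other than trichostatin A, and ABCC4 rises above its C1 libraries in mocetinostat and tacedinaline from C3.

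Within a library, the balance of ABCC4 to ABCC3 counts moved towards ABCC4. The log2 ratio rose from C1 to C5 by 6.40 ± 2.13 (SD, n = 3 batches) in tacedinaline, 5.05 ± 0.09 in mocetinostat, 4.37 ± 1.18 in scriptaid, 2.97 ± 0.15 in vorinostat, 1.51 ± 0.49 in apicidin, 1.16 ± 0.31 in valproic acid and 1.13 ± 0.23 in panobinostat. It rose in 3 of 3 batches in each of the 7 chemicals. In tacedinaline the C5 libraries held only 2, 7 and 35 counts of ABCC3, so the size of that rise is imprecise. In trichostatin A the ratio changed by -0.08, -0.11 and -2.36 in the 3 batches, the last being the batch whose C1 library stood apart. A ratio within a library does not depend on library scaling and shows unequal change of the 2 transcripts. The ratio of ABCC4 to ABCC2 rose by between 1.80 ± 0.39 in valproic acid and 6.01 ± 0.70 in mocetinostat. The ratio of ABCC3 to ABCC2 rose in 3 of 3 batches in 6 chemicals, by 2.54 ± 0.73 in vorinostat, 1.00 ± 0.47 in apicidin, 0.96 ± 0.74 in mocetinostat, 0.94 ± 0.14 in panobinostat, 0.64 ± 0.17 in valproic acid and 0.53 ± 0.42 in scriptaid. In tacedinaline its change of -0.71 ± 2.22 was within the spread between batches.

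**Figure D4:**
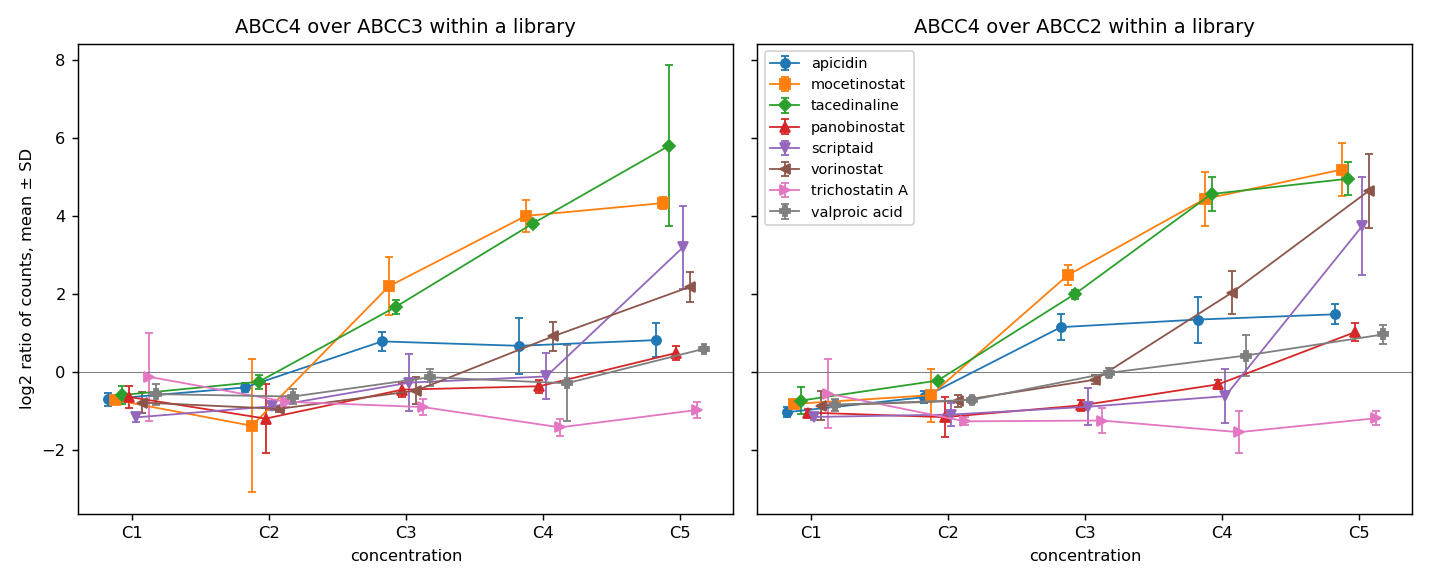
Log2 ratio of ABCC4 to ABCC3 counts (left) and of ABCC4 to ABCC2 counts (right) within a library, at C1 to C5, as the mean with bars for the SD over batches and 1 line per chemical. The lines of mocetinostat and tacedinaline lie above the others from C3, and the trichostatin A means stay below 0 on both sides.

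SLC51A and SLC51B, the 2 subunits of the organic solute transporter, had too few counts to be tested in any chemical. SLC51A had 71 counts over all libraries and a count above 0 in 20 of them, and SLC51B had 294 counts and a count above 0 in 66. SLC51B read 2.11, 2.04 and 2.15 CPM at C1 in mocetinostat and 0, 2.05 and 0.91 at C5, and these libraries overlapped. In tacedinaline it had 1, 9 and 1 counts at C1, 7, 8 and 14 at C2 and 0 in each C5 library, without overlap of C1 and C5. At this depth a change in either subunit could not be tested within a chemical.

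In trichostatin A, none of 13 tested member probes was called at C5, and 1 had an unadjusted p under 0.05, SLCO1B1 (log2 change 0.79 ± 0.34). DESeq2 called none. With no filter on low counts the SLCO1B1 change was called higher (adjusted p = 0.0345). Without the C1 library of batch 3 the SLCO1B1 change was 0.39 ± 0.24, that of ABCC2 went from 0.37 to 0.07 ± 0.18 and that of ABCC3 from 0.52 to 0.15 ± 0.16. No member was called then either, where 83 of 12878 features were called lower and 21 higher. In the 2 other C1 libraries and the 3 at C5, SLCO1B1 read 114 and 111 against 218, 94.3 and 126 CPM. The doses of the 8 chemicals are not matched, so the place of trichostatin A beside the other hydroxamates at C5 is given as values only.

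At C2 no member was called in any chemical by edgeR (0 of 102), where 5 had an unadjusted p under 0.05 and DESeq2 called none. Over all features in the 8 chemicals together, 0.0206% were called lower and 0.0659% higher at C2. At C3, 23 member results were called lower and 2 higher, against 3.16% and 2.82% of all features. At C4 these numbers were 44 and 4, against 8.14% and 7.85%. The C3 calls came from mocetinostat (8), apicidin (6), tacedinaline (5), vorinostat (3) and valproic acid (1). Scriptaid, with 0 lower calls at C3 and 1 at C4, had 3 and 4 without its C4 library of batch 3. The 3 at C3 were SLCO1B1, SLC10A1 and the leading ABCC3 probe. For SLC10A1 the adjusted p of edgeR at C3 was 0.041 without that library and 0.143 with it. For the leading ABCC3 probe it was 0.0146 without and 0.2501 with it. The C4 calls are named with the hepatocyte markers. On leaving out that library, the share of all scriptaid features called lower went from 0.876% to 3.67% at C3. At C4 it went from 2.67% to 6.02%. By the slope on log2 concentration, 56 were called lower and 3 higher, against 12.7% and 12.7% of all features.

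The C5 against C1 change differed between the 8 chemicals in 10 of 16 member probes that could be fitted in 1 model of all libraries, where 30.3% of all features did so. It did so in both ABCC2 probes, all 3 ABCC3 probes, SLCO1B1, SLC10A1 and 3 of the 4 ABCB11 probes. Among the 7 chemicals without trichostatin A, 9 of 16 differed, against 21.4% of all features, with adjusted p = 3.67e-20 for the leading ABCC2 probe and 0.000215 for SLCO1B1. ABCB4 was not called (adjusted p = 0.0737 over 8 chemicals).

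The other genes of the pathway were taken from a list of 29 sensors, regulators, scaffold proteins and further transporters with 42 probes. In the 7 chemicals other than trichostatin A, 120 of 218 tests were called lower and 5 higher at C5. Of all features tested in a chemical, 6.22% to 24.9% were called lower and 4.84% to 22.7% higher. ABCG5 and ABCG8, the subunits of the canalicular sterol exporter, were lower in all 7. They and SLCO2B1 had the largest median absolute log2 changes among 7 symbols called lower in 7 chemicals, the others being ABCC6, NR1I2, NR1I3 and PDZK1. ABCG5 had mean levels of 10.2 to 18.7 CPM at C1 in these chemicals and 0 to 0.695 CPM at C5. ABCG8 went from 73.0 ± 9.3 CPM to 13.3 ± 2.2 (SD, n = 3) in panobinostat, its smallest fall, and from 59.3 ± 11.7 to 0.342 ± 0.593 in tacedinaline. SLCO2B1, another organic anion uptake carrier, was lower in all 7, with log2 changes between -6.40 ± 0.31 in tacedinaline and -3.44 ± 0.25 in valproic acid. NR1H4, the bile acid receptor FXR, was lower in 6 chemicals, from 42.2 ± 3.0 to 6.46 ± 3.32 CPM in apicidin and from 52.0 ± 10.5 to 0.415 ± 0.076 CPM in tacedinaline. It was not called in valproic acid (log2 change -1.03 ± 0.36, adjusted p = 0.0655).

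There were 5 higher calls in the list, and the symbols with the most are given. RDX, radixin, which anchors ABCC2 at the canalicular membrane, was higher in panobinostat (log2 change 0.82 ± 0.15) and valproic acid (0.61 ± 0.18). ATP8B1, a canalicular phospholipid flippase, was higher in vorinostat (2.68 ± 0.83), and FGFR4, the receptor for the bile acid signal FGF19, in tacedinaline (1.37 ± 0.36). The weaker FGFR4 probe was tested in 7 chemicals and called in none. The remaining call, of EZR, ezrin, in mocetinostat (log2 change 1.21), had a smaller median absolute log2 change than ATP8B1 and FGFR4, which also had 1 call each, so it fell outside the naming rule and is given to complete the count. UGT1A1, which conjugates bilirubin, is named here after its values were seen. Its strongest probe was lower in mocetinostat (-0.97 ± 0.22), tacedinaline (-1.57 ± 0.16) and vorinostat (-1.46 ± 0.19) and was not called in the other 5 chemicals. UGT1A genes share exons, so reads of related transcripts may be included. FABP6, FGF19, GPBAR1 and SLC10A2, whose main sites are outside the hepatocyte, were under 1 CPM at C1.

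Hepatocyte markers were also mostly lower at C5. All 12 were detected, and 80 of 84 tests were called lower at C5 in the 7 chemicals. Over all features tested, 6.22% to 24.9% were called lower and 4.84% to 22.7% higher, depending on the chemical. In those chemicals the summed level of these markers was 50754 to 102484 CPM over the C1 libraries and 3721 to 33469 over the C5 libraries. In scriptaid the sum fell from 57531, 51660 and 52821 CPM at C1 to 20290, 18291 and 15039 at C4. At that C4 the leading ABCC2 probe read 210, 113 and 286 CPM and was not called. Of the 14 member probes tested there, SLC10A1 alone was called lower (adjusted p = 0.00352 by edgeR). Without the batch 3 library 4 of 14 were called lower, namely SLC10A1, SLCO1B1, the leading ABCC3 probe and the second ABCC2 probe. Over all features 2.67% were called lower with that library and 6.02% without it. In bulk lysates, fewer cells of a type and less RNA per cell cannot be told apart. Biliary markers were called higher in 11 and lower in 1 of 34 tests, with sums of 65.4 to 167 CPM at C1 and 79.1 to 228 at C5, and AQP1, CFTR, CLDN4 and EPCAM were among those under 1 CPM at C1. Stromal markers were called lower in 26 and higher in 8 of 63 tests, with sums of 181 to 304 CPM at C1 and 111 to 234 at C5 in the 7 chemicals. COL1A2, THY1 and VIM were under 1 CPM at C1. The part of these shifts in the transporter results was not tested.

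Across the 40 group means, which share libraries, plates and depth between genes, the rank correlation with each member was computed as a description over 15616 other features. SLCO1B1 was most like GLYAT (Spearman's rho 0.976) and NGEF (0.975), ABCC2 like IL6R (0.963) and SCGN (0.963), and ABCC3 like GJB1 (0.949) and HPN (0.945). For SLC10A1 they were HSBP1L1 (0.904) and APOC1 (0.901), for ABCB11 APOA2 (0.884) and TSKU (0.854), and for ABCB4 PNKD (0.883) and CES2 (0.874). ABCC4 was most like GINM1 (0.865) and ZNF57 (0.787). The lowest values were those of the scarce genes, SLCO1B3 with LSM14A (0.701) and USP16 (0.692), and SLC51B with PLAAT2 (0.620) and ACSL5 (0.598). Among members, SLCO1B1 and ABCC2 had a rho of 0.917 and SLCO1B1 and ABCC3 of 0.886.

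The share of features called lower was also set against promoter CG content beyond the members. Of features whose promoter window held at most 4 CG, the lower quartile of all promoters, 19.3% in valproic acid to 46.3% in vorinostat were called lower at C5 in the 7 chemicals. Of features with 28 or more, the upper quartile, 3.84% in valproic acid to 21.9% in vorinostat were. In tacedinaline the shares were 41.0% of 730 features and 15.6% of 4430. The share called higher was larger at low than at high CG content in valproic acid (9.14% against 4.30%), panobinostat (8.58% against 5.88%) and apicidin (14.2% against 13.2%). It was smaller in mocetinostat (12.5% against 15.3%), scriptaid (8.95% against 12.8%), tacedinaline (14.7% against 20.3%) and vorinostat (17.3% against 23.0%). The features were not matched on expression level, and 80.2% of those tested in tacedinaline had a promoter in the table. A link between CG content and the changes of the members was not tested.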

How the data were processed

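Gene expression was measured by TempO-Seq, in which pairs of detector oligos are ligated on RNA in cell lysates and sequenced. The deposited table holds raw read counts per probe for 118 libraries, made by the authors with bcl2fastq 2.20.422, fastp 0.23.2 and STAR 2.7.10b, which the submitters' processing notes name together with DESeq2 1.38.0. The genome build and probe sequences were not given in the sources used here. One row lacked values in some libraries and was left out, which kept 22068 of 22069.

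Groups were taken from the sample labels. In R 4.3.3 the counts were fitted per chemical with edgeR 4.0.16 (TMM scaling, filterByExpr, quasi-likelihood F test), for C2 to C5 against C1 and for the slope on log2 concentration. The difference between chemicals was tested as an interaction in 1 model of all libraries. A call needed an adjusted p under 0.05 over all features and, for changes, a fold of at least 1.5. Each standard error was derived from the log2 change and its F statistic. Where a C5 group had no count, 3 counts over the group were taken as the floor, and where it had 1 to 3 counts a ratio of summed counts with an exact 95% interval is given. The scripts were tested on simulated data. Correlations used group means of log2 CPM, and promoters came from RefSeq.

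The members, gene lists and tests were chosen with earlier results of these data known. Named genes were all members with every probe, from the pathway list the 3 symbols called in the most chemicals in each direction (ties by median absolute log2 change) plus NR1H4, and for each member the 2 features most like it. Markers were named only where they were under 1 CPM. The level of 1 marker is not reported here.

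Total counts ran from 1061359 to 5250260 (median 3702007), and 10223 to 13492 features had at least 5 counts in a library. No replicate pair among 116 agreed within sampling noise (lowest chi-square per degree of freedom 3.30). The replicate number marks a HepaRG batch in the labels. As a check of pairing, libraries' deviations from their group means were correlated, with a median of 0.0230 over 232 same-batch pairs and -0.0109 over 464 pairs that crossed batches. Alternatives were a replicate block, DESeq2 1.42.0, RLE size factors, library totals, no filter, thinning to 1000000 counts, 1 fit of all libraries, summed probes, and leaving out each batch or a library.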

Additional observations from a re-analysis of the deposited data

Results flagged for a closer look

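For 10 member probes the C5 against C1 change differed between the 8 chemicals by the interaction test of edgeR, adjusted over all features. The adjusted p was 4.04e-27 and 5.02e-23 for the 2 ABCC2 probes, 2.72e-22, 7.17e-11 and 5.19e-09 for the 3 ABCC3 probes, 8.93e-13 for SLCO1B1 and 9.86e-05 for SLC10A1. For ABCB11 it was 8.59e-09 for the leading probe, 0.0127 for ABCB11_88549 and 0.0365 for ABCB11_90399. The last was not called among the 7 chemicals without trichostatin A (adjusted p = 0.419), and the other 9 were. Concentrations were not matched between chemicals, so dose and chemical cannot be told apart in these differences. No group had enough libraries for a test of single outlying libraries.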

How the results depend on the processing

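Over the 55 tested C5 results of the leading probes, 593 recomputations gave the same direction and side of the threshold in 546, a lost call in 29, a new call in 3 and a turned sign in 15, none of the last among called results. With the replicate block, 57 member results were lower and 3 higher at C5, 56 lower and 3 higher by slope, 23 lower at C3 and 45 at C4, 5 higher at C2 to C4, and 11 differed between chemicals. Library totals, and leaving out the scriptaid C4 library of batch 3, were chosen after seeing the data.

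Summing the probes of a gene, which leaves fewer features to count, gave 36 lower and 1 higher at C5, 33 lower by slope, 26 lower at C4, 3 higher at C2 to C4, and 6 differing between chemicals. Higher calls at C5 numbered 1 with DESeq2, 1 with RLE size factors and 1 in 1 fit of all libraries, which also gave 1 lower call at C2. Thinning gave 27 lower at C4. Leaving out a batch or library gave 47 to 59 lower and 1 to 3 higher at C5, 43 to 57 lower and 1 to 3 higher by slope, 0 to 1 lower at C2, 13 to 26 at C3 and 33 to 47 at C4, 1 to 6 higher at C2 to C4, and 9 differing between chemicals. The cause of these shifts was not tested.

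Signs turned in results that were not called. On leaving out a batch or library, the log2 change at C5 ran from -0.68 to 1.79 for SLC10A1, -0.62 to 0.69 for ABCB11, -1.69 to 3.68 for ABCB4 and -0.48 to 0.11 for ABCC4 in trichostatin A, from -0.81 to 0.005 for ABCB11 and -1.40 to 0.21 for ABCB4 in panobinostat, and for ABCC4 from -0.10 to 0.0055 in scriptaid and -0.15 to 0.10 in vorinostat. ABCB11 in trichostatin A was -0.18 with summed probes, and SLCO1B3 in vorinostat was 0.0815 with the replicate block. ABCC4 was 0.12 in scriptaid with library totals, and in vorinostat 0.0776 with library totals, 0.0628 thinned and 0.0068 with summed probes.

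Library totals moved the median log2 change of all features at C5 to 0.27 in mocetinostat, 0.22 in tacedinaline, 0.16 in scriptaid, 0.16 in valproic acid and 0.10 in apicidin. The share of calls that were lower went from 51.4% to 40.6% in mocetinostat, 58.3% to 46.2% in panobinostat, 51.8% to 40.5% in tacedinaline and 56.2% to 38.0% in valproic acid. Thinning could be run for 37 of the 55 results. Depth limited SLC51A, SLC51B and SLCO1B3, and the weaker ABCB11 probes.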

Other observations

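SLC51A, listed in 20 of 118 libraries, had its highest group in trichostatin A C3, with 1.44, 2.18 and 1.90 CPM (22 counts). The C1 libraries of that chemical read 1.33, 0 and 0 CPM. No test was made, and the group was noticed after its values were seen.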
